A study of Homo sapiens with 4 samples.

Results

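The wild-type hepatocellular carcinoma line Huh7 was profiled by RNA sequencing at a high and at a low glucose concentration, and the genes described here are the protein-coding genes read well enough in both of its libraries. A gene was a member when at least 20 reads were assigned to it at 5 mM and at 25 mM glucose, which left 12340 of 19921 protein-coding genes, out of 59652 genes of every class in the count table. Cells were grown in glucose-free DMEM with 10% fetal bovine serum and antibiotics, supplemented with 5 mM or 25 mM glucose for 48 h, and 1 library was made per condition. PLC, another hepatocellular carcinoma line, was cultured with the same glucose concentrations and also gave 1 library per condition. Both lines carry no engineered allele in the labels, and the 2 Huh7 libraries share the line, the serum, the base medium and the time. With 1 library per condition there is no replicate check, so a difference between the glucose levels and a difference between the libraries cannot be told apart, and no p-value is given.

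Glucose reaches the transcriptome of liver cells by several known routes. Glucose phosphates release the transcription factors ChREBP (MLXIPL) and MondoA (MLXIP), which bind carbohydrate-response elements of genes such as TXNIP. The TXNIP protein is arrestin-like and lowers glucose uptake. A shortage of glucose, amino acids or correctly folded proteins activates kinases of the translation factor eIF2, general translation slows, and the factor ATF4 is made, which induces amino acid transporters, amino acid synthesis and tRNA-charging enzymes. Nutrient supply also sets how many cells copy their DNA and divide, and the histone genes used for new chromatin are expressed during that copying.

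The 5 mM Huh7 library held 21376239 assigned reads and the 25 mM library 30085303, of which members took 93.3% and 93.5%. Of the other protein-coding genes, 6933 were under 20 reads in both libraries, 511 under 20 at 5 mM only and 137 at 25 mM only, and 4059 had no read in either. All 14 defining genes of hepatocytes and liver tumours were members, ALB, AFP and APOB among the 10 members with the highest FPKM. Of the 10 immune-cell markers only CD14 and CSF1R reached 20 reads in both libraries, and the pan-leukocyte gene PTPRC had 5 reads at 5 mM and 4 at 25 mM. PECAM1 was the only member among 8 endothelial markers, and VWF, CDH5, KDR, TEK and ERG had no read. Of the 9 stellate-cell and fibroblast markers, LUM, RGS5, COL3A1 and PDGFRB were members, and ACTA2 and DES had no read.

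Levels are given as FPKM, reads per kilobase of exon scaled to a fixed total of assigned reads, and a difference is given as the ratio of FPKM at 25 mM to FPKM at 5 mM. Pairs of reads or FPKM are given with 5 mM first. The range in brackets after a ratio is its 95% exact Clopper-Pearson interval, which covers counting error only and says nothing of the spread between cultures. A gene was called higher when its ratio was above 1.5 and lower when it was below 0.67, with FPKM above 0.5 in at least 1 of the libraries. By this rule 693 members were higher (percent called 5.62) and 665 were lower (percent called 5.39) at 25 mM. The median log2 ratio of all members was 0.04, the quartiles were -0.17 and 0.23, and 8452 members (68.5%) lay between ratios of 0.8 and 1.25. Among called members the lower side reached further. However, the minimum of 20 reads left out 511 genes low at 5 mM only, the smaller library, and 137 low at 25 mM only. Extreme ratios are lost by it in both directions, such as 39.0 for TXNIP and 0.0163 for FUT1. A ratio below 1/4 was found for 27 called genes and a ratio above 4 for 2, a ratio below 1/3 for 57 and above 3 for 13, and a ratio below 1/2 for 204 and above 2 for 126. Genes called higher took 1.79% of the reads at 5 mM and 3.05% at 25 mM, and genes called lower took 3.53% and 1.91%.

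**Figure D1:**
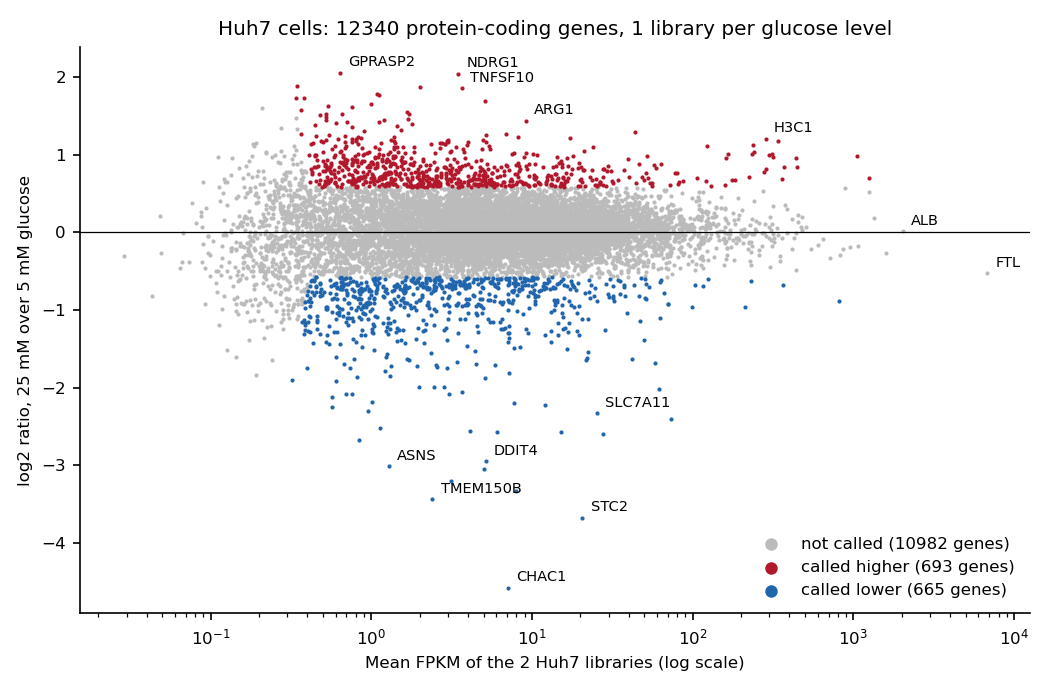
Each point is 1 of the 12340 members, with the mean FPKM of the 2 Huh7 libraries on a log scale against the log2 ratio of 25 mM to 5 mM glucose. Red points are the 693 genes called higher, blue points the 665 called lower and grey points those not called. The lowest point is CHAC1, and the abundant genes ALB and FTL lie within the grey band.

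Genes of the ATF4 program were among those with the lowest ratios. CHAC1, an enzyme that breaks down glutathione, had 593 and 35 reads, that is 13.5 and 0.567 FPKM, a ratio of 0.0419 (0.0289 to 0.0590). STC2, a secreted glycoprotein hormone, had 4988 and 550 reads, 38.1 and 2.98 FPKM, a ratio of 0.0783 (0.0716 to 0.0856). INHBE, the liver activin subunit beta E, measured 9.03 and 1.09 FPKM, a ratio of 0.121 (0.0968 to 0.150). In PLC each of these 3 genes was lower at 25 mM as well, with ratios of 0.118, 0.184 and 0.121. The steroid dehydrogenase gene HSD17B14 measured 14.5 and 1.43 FPKM, a ratio of 0.0991 (0.0717 to 0.134), against 0.637 in PLC. SH3BP2, a signalling adaptor, measured 5.66 and 0.614 FPKM, a ratio of 0.108 (0.0947 to 0.124), and its PLC ratio was 0.162. TMEM150B, a membrane protein gene, had 161 and 21 reads, a ratio of 0.0927 (0.0558 to 0.147), and had 18 and 24 reads in PLC, where it was under the minimum.

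The rest of the 15 lowest genes by the upper bound of the interval were DDIT4, ASNS, ANKRD1, UAP1L1, TRIB3, ADM2, SLC7A11, RASD1 and SULT1C2. DDIT4, an inhibitor of the growth kinase mTOR, measured 9.11 and 1.18 FPKM, a ratio of 0.130 (0.0996 to 0.167). ASNS, which makes asparagine, measured 2.29 and 0.285 FPKM, a ratio of 0.124 (0.0874 to 0.173). Both share exon bases with other annotated genes, 847 of the 2054 bases of DDIT4 and 2415 of the 4896 bases of ASNS, and how the counting split such reads is not given in the sources used here. ANKRD1, a target of the growth regulator YAP, measured 47.7 and 7.87 FPKM, a ratio of 0.165 (0.148 to 0.183), and was lower still in PLC at 0.0958. RASD1, a small GTPase induced by glucocorticoids, had a ratio of 0.169 (0.133 to 0.213) in Huh7 beside 1.18 in PLC. SULT1C2, a sulfotransferase, measured 1.93 and 0.336 FPKM, a ratio of 0.174 (0.136 to 0.221), against 0.566 in PLC.

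ATF4 binds an element whose core is TGATGNAA, and this core was looked for on both strands of the RefSeq promoter windows (GRCh38.p14), which run from 250 bases before to 50 bases after each start site. Of the 33 lower genes of the ATF4 list, 26 had a window, and 7 of those (26.9%) held the core. Over all members of the ATF4 list, called or not, 8 of 33 windows (24.2%) held it. The 2 shares are close, so the core does not set the lower genes apart within the list. It was in 26 of 509 windows of all genes called lower (5.11%), which include these 7, and in 12 of 547 windows of genes called higher (2.19%). Over all members it was in 177 of 10127 windows (1.75%), and in 1003 of all 27305 windows (3.67%). The 7 are printed because they are the lower genes of the ATF4 list in which the letters could be seen. Capitals mark the core on the strand of the gene, in either orientation.
CHAC1, chr15:40953242-40953289, plus strand: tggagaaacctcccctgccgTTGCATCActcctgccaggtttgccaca
ASNS, chr7:97872449-97872496, minus strand: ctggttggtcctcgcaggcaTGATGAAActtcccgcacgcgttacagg
SLC7A1, chr13:29595654-29595701, minus strand: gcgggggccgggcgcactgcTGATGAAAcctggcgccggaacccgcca
SLC3A2, chr11:62881716-62881748, plus strand: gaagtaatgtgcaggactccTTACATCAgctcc
HERPUD1, chr16:56931946-56931993, plus strand: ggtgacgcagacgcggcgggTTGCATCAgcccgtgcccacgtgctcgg
CARS1, chr11:3057398-3057445, minus strand: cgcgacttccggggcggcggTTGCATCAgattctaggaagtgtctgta
MARS1, chr12:57488044-57488091, plus strand: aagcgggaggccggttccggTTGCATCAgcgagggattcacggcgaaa
A match describes letters in a window and is not a binding site shown by these data. Their ratios ran from 0.0419 for CHAC1 and 0.124 for ASNS to 0.628 for MARS1.

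Of 43 listed genes known to be induced by ATF4, 41 were members, 33 of these were called lower and 0 higher, and their median log2 ratio was -1.11 beside 0.04 for all members. Amino acid transporters were part of the group. SLC7A11, which imports cystine, measured 42.1 and 8.37 FPKM, a ratio of 0.199 (0.190 to 0.208). SLC7A5, the light chain of the large neutral amino acid exchanger, measured 88.1 and 27.6 FPKM, a ratio of 0.313 (0.301 to 0.325), and its heavy chain SLC3A2 measured 52.3 and 25.6 FPKM, a ratio of 0.489 (0.470 to 0.509). SLC7A1, the main importer of cationic amino acids, measured 33.0 and 10.7 FPKM, a ratio of 0.325 (0.310 to 0.341). Among all 27 transporter members, 9 were lower and 2 higher, with a median log2 ratio of -0.19. The 2 higher were SLC6A6, the taurine transporter, at 1.82 (1.75 to 1.89), and SLC38A4, a small neutral amino acid transporter of hepatocytes, at 1.64 (1.48 to 1.82). SLC38A2, which is also listed as an ATF4 target, was not called at 0.794 (0.778 to 0.811).

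Genes of serine, one-carbon, proline and asparagine synthesis were lower in 10 of 25 members and higher in 1, with a median log2 ratio of -0.40, or -0.78 over the 9 whose exons overlap no other gene. Of these lower genes all but MTHFD1L are also on the ATF4 list and were counted there. The 3 enzymes that make serine from a glycolytic intermediate had graded ratios. PSAT1 was by far the most abundant of them, 278 and 143 FPKM, a ratio of 0.514 (0.501 to 0.528), followed by PSPH at 57.4 and 38.2 FPKM, a ratio of 0.664 (0.633 to 0.698), and PHGDH at 29.5 and 16.5 FPKM, a ratio of 0.558 (0.536 to 0.580). The mitochondrial folate enzymes MTHFD2, SHMT2, MTHFD1L and ALDH1L2 had ratios of 0.343 (0.323 to 0.364), 0.530 (0.514 to 0.547), 0.582 (0.551 to 0.615) and 0.339 (0.282 to 0.406). Their cytosolic counterparts MTHFD1 and SHMT1 were not called, at 1.03 (0.971 to 1.09) and 1.14 (1.07 to 1.22). The exception on the higher side was TYMS, the thymidylate synthase of DNA synthesis, at 1.58 (1.41 to 1.77), which shares 1150 of its 2421 exon bases with neighbours. ALDH18A1, which starts proline synthesis, had a ratio of 1.21 (1.16 to 1.27) and was the only ATF4-list member whose interval lay above 1.

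Cytosolic aminoacyl-tRNA synthetases, the enzymes that charge tRNAs, were lower in 6 of 20 members with 0 higher and a median log2 ratio of -0.43. The 6 were SARS1 at 0.463 (0.435 to 0.493), CARS1 at 0.517 (0.475 to 0.564), YARS1 at 0.518 (0.497 to 0.540), GARS1 at 0.544 (0.526 to 0.562), AARS1 at 0.559 (0.545 to 0.573) and MARS1 at 0.628 (0.606 to 0.650). SARS1, CARS1, GARS1 and MARS1 are also on the ATF4 list and were counted there. KARS1, QARS1 and RARS1 had ratios of 1.11 (1.07 to 1.15), 1.09 (1.04 to 1.14) and 1.05 (1.0 to 1.11), none of them called. Their mitochondrial relatives were called lower in 1 of 16 members, with a median log2 ratio of 0.03.

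Of the factors that build this response, 8 of 19 were lower and 0 higher, with a median log2 ratio of -0.21, or -0.63 over the 12 whose exons overlap no other gene. ATF4 itself measured 144 and 89.1 FPKM, a ratio of 0.617 (0.599 to 0.636). The pseudokinase TRIB3 measured 122 and 23.2 FPKM, a ratio of 0.190 (0.181 to 0.199), and the stress factors NUPR1, ATF3 and DDIT3 (CHOP) had ratios of 0.217 (0.195 to 0.242), 0.237 (0.194 to 0.287) and 0.360 (0.299 to 0.433). CEBPB and CEBPG, partners of ATF4 on DNA, had ratios of 0.453 (0.426 to 0.482) and 0.567 (0.544 to 0.591). The 4 kinases of eIF2 were not called, EIF2AK1 at 0.990 (0.955 to 1.03), EIF2AK2 at 1.27 (1.19 to 1.35), EIF2AK3 at 1.18 (1.05 to 1.33) and EIF2AK4 at 1.17 (1.09 to 1.26). XBP1, the factor of another arm of the unfolded protein response, measured 235 and 232 FPKM, a ratio of 0.988 (0.968 to 1.01).

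Genes that fold proteins in the endoplasmic reticulum were called in neither direction. All 20 ER chaperone members lay between ratios of 0.772 and 1.47, with a median log2 ratio of 0.11. The shares called over all members were 5.62% higher and 5.39% lower. Of 22 members of ER-associated degradation and translocation, HERPUD1 alone was called, lower at 0.499 (0.466 to 0.535), and it is also on the ATF4 list. Secreted stress hormones were lower in 5 of 13 members and higher in 0. All 5, STC2, INHBE, ADM2, GDF15 and VEGFA, are also on the ATF4 list and were counted there. GDF15, which curbs appetite, measured 99.2 and 24.5 FPKM, a ratio of 0.247 (0.233 to 0.262), ADM2, a relative of adrenomedullin, 7.04 and 1.19 FPKM, a ratio of 0.170 (0.141 to 0.203), and VEGFA, which drives vessel growth, 9.42 and 5.04 FPKM, a ratio of 0.535 (0.506 to 0.566). FGF21, a fasting hormone of the liver, had 10 reads at 5 mM and 0 at 25 mM and was no member. A count of 0 allows up to 3 reads, or 0.0997 CPM (counts scaled to a fixed library total), in the 25 mM library.

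Genes that sense nutrients at the lysosome were also among those called lower. Of 23 members of the mTOR pathway and its inhibitors, 8 were lower and 1 higher, with a median log2 ratio of -0.22, or -0.38 over the 7 whose exons overlap no other gene. Among the lower genes DDIT4 and SESN2 are also on the ATF4 list, and EIF4EBP1 was counted among the factors that build that response. SESN2, an amino acid sensor that holds mTOR back, measured 19.8 and 4.23 FPKM, a ratio of 0.214 (0.192 to 0.238), while its relative SESN3 was the higher gene, 4.56 and 7.09 FPKM, a ratio of 1.55 (1.44 to 1.68). The Rag GTPases RRAGD and RRAGC, which bring mTOR to the lysosome, had ratios of 0.375 (0.349 to 0.404) and 0.441 (0.369 to 0.526), and their regulators FLCN and FNIP1 0.548 (0.507 to 0.592) and 0.566 (0.533 to 0.602). MTOR and RPTOR were not called, at 0.983 (0.951 to 1.02) and 1.02 (0.955 to 1.08). Of 32 autophagy and lysosome members 3 were lower, the sialidase NEU1 at 0.324 (0.310 to 0.339), the autophagy receptor SQSTM1 at 0.468 (0.455 to 0.480) and the cholesterol carrier NPC2 at 0.525 (0.479 to 0.575), and 0 were higher. Over all members 5.39% were lower and 5.62% higher, and at these shares a list of 32 would also hold few called genes.

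On the higher side the 15 leading genes included NDRG1, TNFSF10, LARGE2, KREMEN1, PZP, GPRASP2, SIX4, ARG1, ESPN, H3C1, TPBG, H2AC20, KIF20A and H2AC18. NDRG1, a differentiation and hypoxia-inducible gene, had 346 and 2012 reads, 1.35 and 5.57 FPKM, a ratio of 4.13 (3.68 to 4.64). TNFSF10 (TRAIL), a ligand of death receptors, measured 1.59 and 5.76 FPKM, a ratio of 3.62 (2.96 to 4.45), and 4.82 in PLC. ARG1, the last enzyme of the hepatic urea cycle, measured 4.91 and 13.3 FPKM, a ratio of 2.71 (2.34 to 3.15), against 1.07 in PLC. KREMEN1, a receptor that dampens Wnt signalling, measured 0.490 and 1.68 FPKM, a ratio of 3.43 (2.71 to 4.40), and the glycosyltransferase gene LARGE2 0.861 and 3.15 FPKM, a ratio of 3.66 (2.76 to 4.94). PZP, a protease inhibitor related to alpha-2-macroglobulin, measured 0.509 and 1.74 FPKM, a ratio of 3.42 (2.62 to 4.50). The developmental transcription factor SIX4 had a ratio of 2.87 (2.36 to 3.51). GPRASP2 had the highest ratio of any called gene, 4.16 (2.61 to 6.96), on 21 and 123 reads.

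Histone, DNA replication and mitosis genes were called in the higher direction only. Replication-dependent histones, which package newly copied DNA, were called higher in 34 of 46 members and lower in 0, with a median log2 ratio of 0.80. H3C2 measured 952 and 1551 FPKM, a ratio of 1.63 (1.59 to 1.67), H3C3 708 and 1395 FPKM, a ratio of 1.97 (1.92 to 2.02), and the linker histone H1-5 297 and 580.2 FPKM, a ratio of 1.95 (1.89 to 2.02). H2AC20, on chromosome 1 and outside the large cluster on chromosome 6, measured 207 and 468 FPKM, a ratio of 2.27 (2.16 to 2.38). Histone copies are nearly identical in sequence, so the split of reads among them is uncertain. Summed over the 46 members, their FPKM was 7583 at 5 mM and 13017 at 25 mM.

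DNA replication genes were higher in 17 of 45 members and lower in 0, with a median log2 ratio of 0.46, and for 43 of the 45 the interval lay above 1. The transcription factors E2F8 and E2F2, which control entry into DNA copying, had ratios of 2.34 (2.10 to 2.61) and 2.26 (1.94 to 2.65). UHRF1, which carries DNA methylation through replication, measured 9.74 and 19.1 FPKM, a ratio of 1.96 (1.83 to 2.10). The helicase subunits MCM4, MCM5 and MCM6 had ratios of 1.76 (1.69 to 1.84), 1.58 (1.5 to 1.67) and 1.53 (1.45 to 1.62), the sliding clamp PCNA 1.58 (1.51 to 1.65) and the ribonucleotide reductase subunit RRM2 1.74 (1.68 to 1.80). Mitosis and kinetochore genes were higher in 19 of 42 members and lower in 0, with a median log2 ratio of 0.56. KIF20A, a motor of cell division, measured 10.3 and 24.0 FPKM, a ratio of 2.33 (2.15 to 2.52), the mitotic kinase PLK1 12.1 and 23.9 FPKM, a ratio of 1.97 (1.85 to 2.11), and the proliferation marker MKI67 57.3 and 97.3 FPKM, a ratio of 1.70 (1.67 to 1.73). DNA repair genes were higher in 5 of 25 members and lower in 0. In bulk RNA a larger share of cycling cells at 25 mM and more of these RNAs per cycling cell cannot be told apart.

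The E2F core TTTGGCGC was in 8 of 38 replication-gene windows (21.1%), 12 of 547 windows of genes called higher (2.19%), 5 of 509 windows of genes called lower (0.982%), 110 of 10127 windows of members (1.09%) and 180 of all 27305 windows (0.659%). Of the replication genes called higher that held it, E2F2, GINS1 and MCM6 are shown with the core in capitals on the strand of the gene.
E2F2, chr1:23531248-23531295, minus strand: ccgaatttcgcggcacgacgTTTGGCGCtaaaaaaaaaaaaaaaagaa
GINS1, chr20:25407658-25407705, plus strand: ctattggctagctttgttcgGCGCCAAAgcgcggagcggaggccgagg
MCM6, chr2:135876568-135876615, minus strand: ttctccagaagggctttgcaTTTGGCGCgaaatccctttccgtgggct
MCM6, further downstream, chr2:135876506-135876553, minus strand: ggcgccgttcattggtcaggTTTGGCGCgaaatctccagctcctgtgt
The CCAAT box CCAAT was common in lists of both directions. It was in 35 of 41 histone windows (85.4%), 26 of 36 mitosis windows (72.2%), 24 of 38 replication windows (63.2%), 15 of 21 cholesterol windows (71.4%) and 15 of 26 windows of the lower ATF4-list genes (57.7%), beside 3754 of 10127 windows of members (37.1%) and 9747 of all windows (35.7%). It was in 253 of 547 windows of genes called higher (46.3%) and 177 of 509 of genes called lower (34.8%), and without the listed histones in 225 of 516 of the former (43.6%). The ATF4 core was in 0 of 41 histone, 0 of 38 replication and 0 of 36 mitosis windows, beside 1.75% of windows of members. At that share lists of this size would hold few matches or none, so these counts do not set the lists apart.

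Cell cycle inhibitors were called in both directions, and the called cyclins, CCND3 and CCNE2, were higher. Of 29 members of the G1 cyclin, CDK inhibitor and p53-target list, 5 were higher and 8 lower. CCND3, a cyclin that starts the cycle, measured 1.19 and 2.33 FPKM, a ratio of 1.95 (1.61 to 2.37), CDK2, a kinase of entry into DNA copying, 5.74 and 10.7 FPKM, a ratio of 1.86 (1.68 to 2.08), and CCNE2 had a ratio of 1.84 (1.48 to 2.30). The CDK inhibitors CDKN2C and CDKN2D were higher too, at 1.66 (1.41 to 1.96) and 2.02 (1.20 to 3.56), and CDKN2B and CDKN1A were lower, at 0.573 (0.525 to 0.626) and 0.666 (0.541 to 0.820). The growth arrest genes GADD45A and GADD45B had ratios of 0.427 (0.383 to 0.474) and 0.523 (0.470 to 0.581), and the cell death genes PMAIP1 and BBC3 0.516 (0.383 to 0.691) and 0.521 (0.429 to 0.632).

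Few genes of glycolysis and glucose transport were called, as many higher as lower. Of 23 glycolysis members 2 were higher and 2 lower, with a median log2 ratio of 0.21 (0.41 over the 9 whose exons overlap no other gene), and for 15 the interval lay above 1. Over all members 5.62% were higher and 5.39% lower, and at these shares a list of 23 would also hold few called genes. The higher genes were LDHA, which makes lactate, with 125 and 191 FPKM, a ratio of 1.53 (1.5 to 1.56), and the D-lactate dehydrogenase LDHD at 1.54 (0.989 to 2.43), whose interval includes 1. The glycolytic enzymes PGAM1, PKM and GAPDH were not called, at 1.43 (1.39 to 1.48), 1.24 (1.23 to 1.26) and 1.02 (1.0 to 1.03). The lower genes were PFKFB2, which sets the level of a phosphofructokinase activator, at 0.436 (0.387 to 0.491), and the neuronal enolase ENO2 at 0.411 (0.277 to 0.604). The count of a gene that shares exons depends on how shared reads were treated, and ALDOA, with 2177 of its 3829 exon bases shared, had only 219 and 303 reads.

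Among glucose transporters and hexokinases 2 of 11 members were higher and 2 lower, beside 5.62% higher and 5.39% lower over all members. SLC2A1 (GLUT1) measured 10.2 and 12.7 FPKM, a ratio of 1.25 (1.17 to 1.33), the major hexokinase gene of these cells, HK2, 31.8 and 27.2 FPKM, a ratio of 0.855 (0.820 to 0.892), and the hepatic transporter SLC2A2 0.576 and 0.780 FPKM, a ratio of 1.35 (0.920 to 2.02). SLC2A10 and the sodium-glucose transporter SLC5A9 were called higher at low levels, 1.99 (1.41 to 2.85) and 1.83 (1.37 to 2.47). The transporter SLC2A6 and the regulator GCKR were lower, at 0.575 (0.516 to 0.639) and 0.554 (0.478 to 0.641).

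Among 14 members around pyruvate dehydrogenase, 2 of the kinases that switch it off were higher and 1 phosphatase lower. Over all members 5.62% were higher and 5.39% lower. PDK1 measured 2.15 and 3.67 FPKM, a ratio of 1.71 (1.56 to 1.87), and PDK3 3.13 and 4.84 FPKM, a ratio of 1.55 (1.43 to 1.67). PDK2 had a ratio of 2.77 (1.70 to 4.72) but stayed under the FPKM threshold, with 0.180 and 0.498 FPKM. PDP2, the phosphatase that switches the enzyme on again, was lower, 8.26 and 4.44 FPKM, a ratio of 0.537 (0.496 to 0.581). Gluconeogenic genes were lower in 5 of 13 members and higher in 0, with a median log2 ratio of -0.50. PCK2, the mitochondrial PEP carboxykinase and an ATF4 target, measured 24.4 and 8.61 FPKM, a ratio of 0.352 (0.327 to 0.379), the coactivator PPARGC1A 1.24 and 0.495 FPKM, a ratio of 0.401 (0.329 to 0.488), and FOXO1, a factor held down by insulin, 5.47 and 3.12 FPKM, a ratio of 0.571 (0.510 to 0.639). The cytosolic PCK1 had no read in either library.

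**Figure D2:**
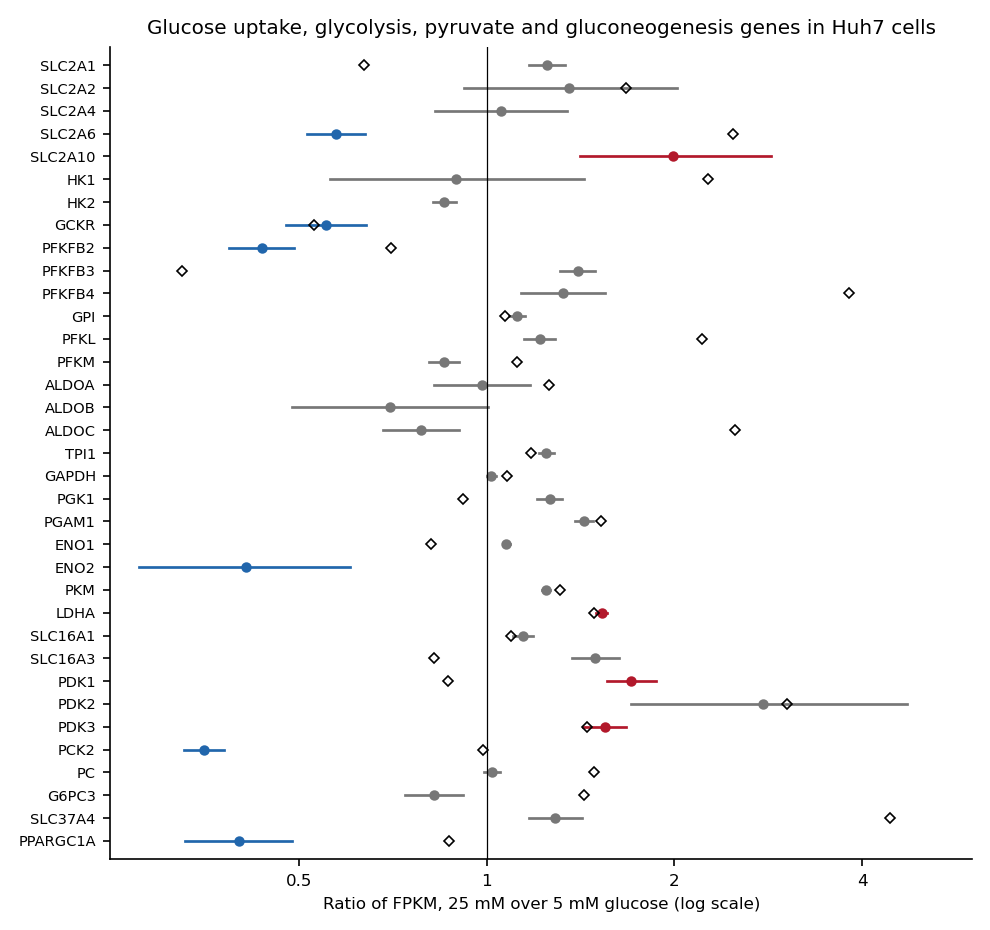
Filled points are Huh7 ratios of FPKM at 25 mM to 5 mM, on a log scale, for members of the glucose uptake, glycolysis, pyruvate dehydrogenase kinase and gluconeogenesis lists, with 95% counting intervals as bars and red or blue where the gene was called. Open diamonds are PLC ratios. Most glycolytic enzymes sit between 1 and 1.5 in Huh7, and PCK2 at 0.352 and PPARGC1A at 0.401 are the lowest.

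The enzyme that removes O-GlcNAc from proteins, OGA, was higher, 10.5 and 19.8 FPKM, a ratio of 1.90 (1.79 to 2.01), while OGT, which adds it, measured 19.1 and 15.4 FPKM, a ratio of 0.808 (0.774 to 0.844). GNPDA1, which returns hexosamine to glycolysis, measured 27.9 and 12.8 FPKM, a ratio of 0.461 (0.432 to 0.491). Of 20 carbohydrate-response members 4 were lower and 1 higher, with a median log2 ratio of -0.27, and 13 intervals lay below 1 against 5 above. The lower genes were GPD1, a link of glycolysis to lipid synthesis, at 0.508 (0.307 to 0.830), the circadian repressor BHLHE40 at 0.515 (0.479 to 0.553), ME1, which makes NADPH, at 0.658 (0.640 to 0.677), and LPIN1, an enzyme of triglyceride synthesis, at 0.665 (0.620 to 0.713). The higher gene was KHK, the fructokinase, with 1.58 and 2.62 FPKM, a ratio of 1.66 (1.31 to 2.11). AKR1B10, an aldo-keto reductase, was lower at 0.423 (0.365 to 0.490). Lists of the citric acid cycle (24 members), the pentose phosphate pathway (9) and AMP-activated kinase (10) had no called gene in either direction. Over all members 5.62% were higher and 5.39% lower, and at these shares lists of 9 or 10 would hold few called genes or none.

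TXNIP, the arrestin-like gene induced by glucose, was no member because of its low count at 5 mM. It had 8 reads at 5 mM and 439 at 25 mM, 0.104 and 4.05 FPKM, a ratio of 39.0 (19.6 to 90.9). In PLC it had 26 and 18 reads, a ratio of 1.31 (0.675 to 2.48). ARRDC4, its arrestin relative, had 0 and 4 reads in Huh7, too few for a ratio. The TXNIP promoter window is printed because this gene had the highest ratio of those under 20 reads at 5 mM that are described here, with capitals for the CCAAT box on either strand and for CACGAG, a variant E box looked for after the values were seen.
TXNIP, chr1:145996530-145996829, minus strand: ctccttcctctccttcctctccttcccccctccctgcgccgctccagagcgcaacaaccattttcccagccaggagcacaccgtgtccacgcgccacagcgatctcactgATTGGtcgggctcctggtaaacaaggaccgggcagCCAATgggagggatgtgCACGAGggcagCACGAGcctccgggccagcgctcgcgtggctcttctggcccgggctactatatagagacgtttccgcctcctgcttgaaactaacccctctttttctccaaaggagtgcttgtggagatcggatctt
CACGAG occurred 2 times on this strand, with its first bases at -88 and -77 from the start site, and a window with at least 2 matches on either strand was found for 85 of 27305 genes (0.311%). The canonical E box CACGTG was absent from the window. Over genes called lower 83 of 509 windows (16.3%) held CACGTG, beside 29 of 547 for genes called higher (5.30%), 1018 of 10127 for members (10.1%) and 2030 of all 27305 windows (7.43%). It was in 6 of 36 mitosis windows (16.7%) and 5 of 38 replication windows (13.2%), and in 3 of 26 windows of the lower ATF4-list genes (11.5%).

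Other genes under 20 reads at 5 mM with the most reads at 25 mM were LRFN1, ZNF688, EPO and TPH2. EPO, the hormone of red cell production that the fetal liver makes, had 6 and 84 reads, a ratio of 9.95 (4.38 to 27.9). LRFN1, a synaptic adhesion gene, had 16 and 97 reads, a ratio of 4.31 (2.52 to 7.83), ZNF688 14 and 93 reads, a ratio of 4.72 (2.68 to 8.97), and TPH2, a serotonin synthesis gene, 17 and 83 reads, a ratio of 3.47 (2.04 to 6.24). In the other direction FUT1, a fucosyltransferase, had 87 and 2 reads, a ratio of 0.0163 (0.00195 to 0.0608), RASGEF1B 94 and 18 reads, a ratio of 0.136 (0.0773 to 0.227), and NIBAN1, a stress gene of the ATF4 list, 56 and 6 reads, a ratio of 0.0761 (0.0268 to 0.176). The immune ligand gene ULBP1 had 52 and 18 reads, a ratio of 0.246 (0.135 to 0.427), and GLI1, a Hedgehog target, 47 and 9 reads, a ratio of 0.136 (0.0586 to 0.281).

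Hypoxia targets were higher in 5 of 25 members and lower in 2, with a median log2 ratio of 0.32. Beside NDRG1 and PDK1, the collagen prolyl hydroxylases P4HA2 and P4HA1 had ratios of 1.97 (1.61 to 2.41) and 1.63 (1.5 to 1.77), and the mitophagy receptor BNIP3L measured 9.39 and 15.4 FPKM, a ratio of 1.64 (1.51 to 1.78). The lower pair, DDIT4 and VEGFA, is shared with the ATF4 list. HIF1A and EPAS1, which encode the oxygen-regulated factors, were not called, at 0.804 (0.783 to 0.826) and 1.01 (0.984 to 1.04). In PLC 3 of 22 hypoxia members were higher and 5 lower, beside 17.5% higher and 10.3% lower over all members measured in PLC.

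Where genes of cholesterol and fatty acid synthesis were called, they were lower. Cholesterol synthesis and uptake genes were lower in 5 of 28 members and higher in 0, with a median log2 ratio of -0.30, and for 22 the interval lay below 1. The 3 with the lowest ratios, LSS, MVD and DHCR7, enzymes along the sterol path, had ratios of 0.556 (0.535 to 0.577), 0.579 (0.554 to 0.605) and 0.627 (0.610 to 0.644). ACSS2, which makes acetyl-CoA from acetate, measured 27.9 and 11.2 FPKM, a ratio of 0.402 (0.379 to 0.426), the lowest of 19 fatty acid synthesis members, of which 2 were lower and 0 higher. FASN measured 252 and 211 FPKM, a ratio of 0.838 (0.828 to 0.848), SCD 907 and 739 FPKM, a ratio of 0.815 (0.808 to 0.822), and SREBF1, the factor that controls them, 31.1 and 28.9 FPKM, a ratio of 0.927 (0.895 to 0.960). The sterol element core TCACNCCAC, searched in the same windows, was in 1 of 21 cholesterol-gene windows (4.76%), beside 113 of 10127 windows of members (1.12%) and 313 of all windows (1.15%). That share rests on 1 window, and a list of this size is too small to set it apart from the members. For triglycerides, AGPAT2 was higher at 1.74 (1.62 to 1.87) and GPAM, the enzyme of the first step, lower at 0.625 (0.602 to 0.649).

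Redox and metal-binding genes were called lower more often than higher. Metallothioneins are small metal-binding proteins, and all 6 that were members were called lower, MT1F at 0.272 (0.219 to 0.336), MT1M at 0.298 (0.170 to 0.506), MT2A at 0.381 (0.349 to 0.417), MT1E at 0.419 (0.376 to 0.467), MT1A at 0.524 (0.309 to 0.876) and MT1X at 0.545 (0.378 to 0.783). MT2A was the most abundant, 71.9 and 27.4 FPKM. Their inducer MTF1 and the zinc exporter SLC30A1 were not called, at 1.03 (0.933 to 1.13) and 1.04 (0.990 to 1.09). Copies of this family on chromosome 16 resemble each other, so reads may be split among them. NRF2 targets were lower in 6 of 27 members and higher in 1, with a median log2 ratio of -0.32. The lowest of them, SLC7A11, is also on the ATF4 list and was counted there. HMOX1, which degrades heme, measured 10.1 and 4.12 FPKM, a ratio of 0.407 (0.350 to 0.471), the light ferritin chain FTL, the gene with the highest FPKM of all, 7986 and 5557 FPKM, a ratio of 0.696 (0.691 to 0.701), and NQO1, a classic target, 277 and 276 FPKM, a ratio of 0.995 (0.976 to 1.01). The higher gene was AKR1C3 at 2.20 (1.55 to 3.18).

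Genes induced by growth signals were more often called lower than higher. Immediate early genes were lower in 7 of 22 members and higher in 0, with a median log2 ratio of -0.20, or -0.32 over the 16 whose exons overlap no other gene, and with KLF4 at 0.240 (0.199 to 0.289), JUN at 0.470 (0.433 to 0.509), DUSP1 at 0.566 (0.522 to 0.614) and MYC at 0.632 (0.601 to 0.663). YAP-TEAD targets were lower in 4 of 23 and higher in 0, with CCN1, a matricellular protein, at 0.399 (0.368 to 0.433), AJUBA at 0.623 (0.601 to 0.645) and CCN2 not called at 0.728 (0.704 to 0.753). The EGF receptor ligands EREG and AREG had ratios of 0.251 (0.212 to 0.296) and 0.444 (0.291 to 0.669), and IRS2, which relays insulin signals, 0.373 (0.314 to 0.441). PDGFRA, a growth factor receptor, was higher at 2.14 (1.76 to 2.61), with 1533 of its 9547 exon bases shared. Chemokine and NF-kB genes were lower in 6 of 17 members and higher in 1. CCL20 measured 91.5 and 48.5 FPKM, a ratio of 0.530 (0.502 to 0.559), and CXCL1, CXCL5 and CXCL8 had ratios of 0.461 (0.377 to 0.562), 0.488 (0.408 to 0.582) and 0.530 (0.422 to 0.664). Another chemokine gene, CXCL2, went the other way, with the highest ratio of the list at 1.63.

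Most liver protein genes were not called. ALB measured 2017 and 2039 FPKM, a ratio of 1.01 (1.0 to 1.02), AFP, the fetal counterpart, 1256 and 1434 FPKM, a ratio of 1.14 (1.13 to 1.15), and the lipoprotein gene APOB 1135 and 1008 FPKM, a ratio of 0.888 (0.884 to 0.892). Among apolipoproteins 1 of 14 members was higher and 2 lower, APOA1 at 1.52 (1.41 to 1.63), APOA2 at 0.541 (0.530 to 0.552) and APOE at 0.628 (0.615 to 0.640). The carriers TF (transferrin) and GC (vitamin D binding protein) had ratios of 1.62 (1.58 to 1.65) and 1.65 (1.55 to 1.75), and the acute-phase proteins HP and CP 2.06 (1.48 to 2.91) and 2.04 (1.69 to 2.49). F7 and SERPINC1, which act in clotting, were lower, at 0.423 (0.375 to 0.476) and 0.561 (0.491 to 0.641), and the complement genes C8A and C8B higher, at 1.87 (1.51 to 2.32) and 1.85 (1.13 to 3.14). ASS1, an earlier step of the urea cycle than ARG1, went the other way, 11.2 and 3.18 FPKM, a ratio of 0.285 (0.248 to 0.327). HNF4A, the factor that holds hepatocyte identity, was not called at 1.07 (1.03 to 1.11).

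Large machinery lists had few called genes. Of 78 cytosolic ribosomal proteins, 31 proteasome subunits, 36 subunits of respiratory complexes III to V, 41 mitochondrial ribosomal proteins and 30 translation factors, 0 were called in either direction, with list medians of the log2 ratio from -0.07 to 0.07. Of 38 nuclear complex I subunits 1 was lower. The shares over all members were 5.62% higher and 5.39% lower. The heat shock genes HSPA1A and HSPA1B were the only called members of 20 cytosolic chaperones, at 1.80 (1.63 to 1.98) and 1.66 (1.41 to 1.96), and a near-identical pair that can exchange reads.

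GC content was not used by the call, and exon length entered it only through the FPKM threshold. At equal reads this threshold leaves out longer genes, and without it 771 members were higher and 770 lower. The median exon length was 3906 bases for genes called higher, 4257 for genes called lower and 5414.5 for the 10982 members not called, and the median GC content was 50.8%, 50.3% and 46.9%. FPKM entered the call, and its median was 2.28, 2.51 and 6.61, so that called genes of both directions were read less deeply than the rest. Genes under 1000 bases made up 4.62%, 1.95% and 0.829%. On chromosome 6, which holds the main histone cluster, 74 of 670 members (11.04%) were higher, against 5.62% over all members. Exon bases were shared with another annotated gene in 318 of the 693 higher genes, 286 of the 665 lower genes and 6196 members (50.2%).

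The PLC libraries held 30279716 reads at 5 mM and 16049686 at 25 mM. In them 11092 members had at least 20 reads in both, of which 1946 were higher (percent called 17.5) and 1146 lower (percent called 10.3) at 25 mM in PLC. Of the 555 genes called higher in Huh7 and measured in PLC, 310 (55.9%) were called higher in PLC and 19 (3.42%) lower, and these 310 made up 15.9% of the PLC-higher genes. Of the 505 called lower in Huh7, 206 (40.8%) were lower in PLC and 64 (12.7%) higher, and the 206 made up 17.98% of the PLC-lower genes. With TMM scaling, which shifted PLC log2 ratios by -0.13, the PLC counts became 1514 higher and 1653 lower, and 286 of the Huh7-higher and 239 of the Huh7-lower genes were then called in the same direction in PLC. Genes induced by ATF4 were lower in 32 of 41 in PLC, with a PLC median log2 ratio of -1.12 beside -1.11 in Huh7. Histone, replication and mitosis genes had larger ratios in PLC, with medians of 2.31, 1.40 and 1.49 against 0.80, 0.46 and 0.56 in Huh7, and 40 of 42, 40 of 45 and 39 of 41 measured members were called higher there. Cholesterol genes went apart, with 17 of 27 higher and 0 lower in PLC and a PLC median of 0.69 against -0.30 in Huh7. With TMM scaling of PLC, 13 cholesterol and 36 replication genes were called higher there, and 0 of either list lower. The PLC counts of 40 higher histone, 39 higher mitosis and 32 lower ATF4-list genes were the same under TMM. No test of these differences between the lines is possible with 1 library per condition.

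**Figure D3:**
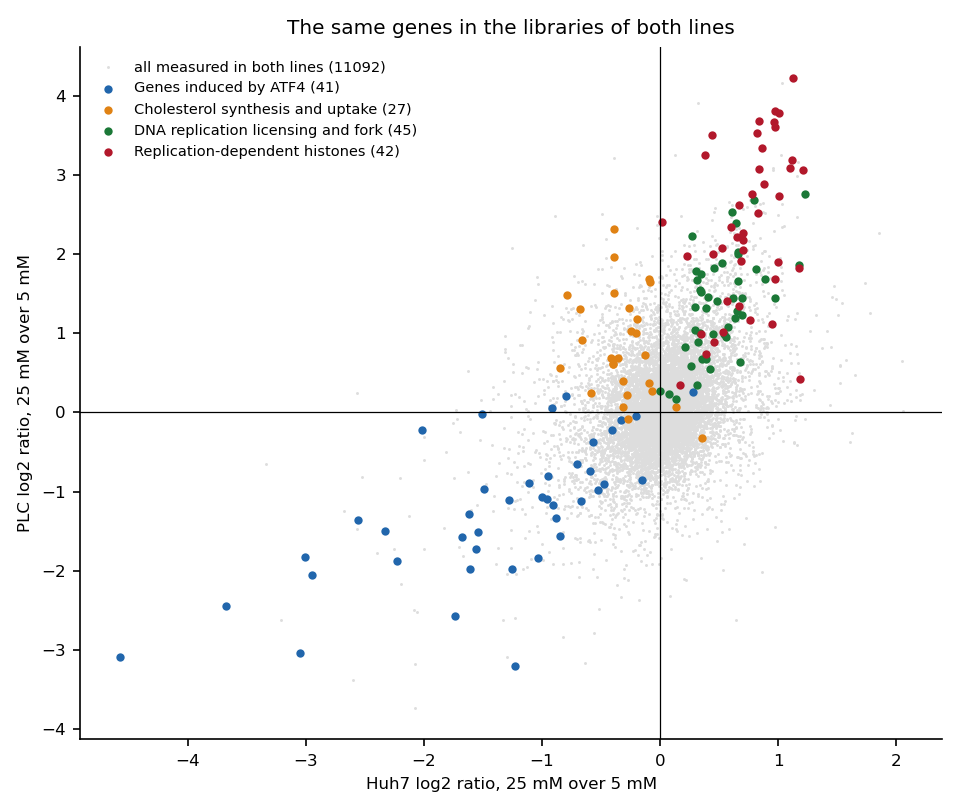
The Huh7 log2 ratio of 25 mM to 5 mM is plotted against the PLC log2 ratio for the 11092 genes measured in both lines (grey), with 4 gene lists in colour. Genes induced by ATF4 lie to the lower left, histones and replication genes to the upper right with larger values in PLC, and cholesterol genes mostly left of 0 in Huh7 and above 0 in PLC.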

How the data were processed

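RNA from 1 culture each of Huh7 and PLC cells at 5 mM and 25 mM glucose (4 libraries) was extracted with TRIzol, depleted of ribosomal RNA with RiboMinus and made into libraries with a NEBNext Ultra Directional kit. The authors deposited raw counts per gene with a gene length, and the submitters' processing notes name HISAT2, featureCounts and hg38. The annotation release and the strand setting are not given in the sources used here, so reads of overlapping and antisense genes cannot be told apart. The table had 59657 lines, of which 5 were left out because their fields were broken over lines, and gene class was taken from GENCODE 44 by symbol or position.

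From the deposited counts, FPKM was computed with the gene length and the column total, and the ratio of 25 mM to 5 mM with an exact Clopper-Pearson interval (SciPy 1.17.1), checked on simulated counts. With 1 library per condition no test was run and no replicate could be left out. PCR reads carry no molecular identifiers, so intervals cover counting error only. Column totals were replaced by TMM (edgeR 4.0.16) or DESeq2 1.42.0 size factors as alternatives. The genes named are the 15 higher and 15 lower called genes whose interval bound nearest 1 was most extreme, up to 6 genes for each of 70 gene lists, the 10 genes with the highest FPKM, and up to 5 genes each way with under 20 reads in 1 library. In several lists more than 6 genes were named, and those were chosen after their values were seen. A few of these genes are not reported here. The members and lists were chosen with earlier results of these data known. Promoter windows were matched by symbol for 10127 of 12340 members, and the 5 motifs searched on both strands do not contain each other.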

Additional observations from a re-analysis of the deposited data

Results flagged for a closer look

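In 14 listed or named genes the call in Huh7 and the call in PLC had opposite directions, and the difference was not tested because each condition had 1 library. They stayed opposite in all 14 under TMM scaling of PLC. Lower in Huh7 and higher in PLC were the lipid genes ACSS2 (ratio 0.402 in Huh7 and 1.95 in PLC), DHCR7 (0.627 and 2.48), MVD (0.579 and 2.78), STARD4 (0.632 and 1.88), APOA2 (0.541 and 5.57), CIDEC (0.605 and 3.30) and GPD1 (0.508 and 2.35). The same held for the inflammatory genes CCL20 (0.530 and 2.53), CXCL1 (0.461 and 2.10), CXCL5 (0.488 and 3.08) and ICAM1 (0.612 and 1.65) and for the transporter SLC2A6 (0.575 and 2.48). The heat shock genes HSPA1A (1.80 in Huh7 and 0.547 in PLC) and HSPA1B (1.66 and 0.397) were higher in Huh7 and lower in PLC.

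Among the genes left out for having under 20 reads at 5 mM only, the 5 with the most reads at 25 mM were looked at, and their intervals lay above 1. Their ratios were 39.0 for TXNIP, 9.95 for EPO, 4.72 for ZNF688, 4.31 for LRFN1 and 3.47 for TPH2. The other left-out genes are not listed singly, and with the minimum of 20 reads set on the higher library alone 773 genes were called higher in place of 693.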

How the results depend on the processing

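No paired analysis was possible because each condition had 1 library, and for the same reason no library could be left out. Against 693 genes called higher and 665 lower, adding 1 to both FPKM values left 250 and 316, requiring at least 100 reads in both libraries 416 and 439, a ratio beyond 2 or 0.5 126 and 204, and genes whose exons overlap no other gene 375 and 379, the last over 6144 genes. TMM gave 627 and 722, and DESeq2 size factors 634 and 716, with shifts of the median log2 ratio of -0.03 in both. Removing the trend with GC content and length gave 667 and 675, and adding 0.1 to FPKM 617 and 611. Of 277 called named genes, 270 kept their call under TMM and 271 each under DESeq2 size factors, an added 0.1 FPKM and the GC and length trend, and 0 reversed. Of 70 list medians, 8 moved by at least 0.1 with 1 added to FPKM and 8 with at least 100 reads, where that of the metallothionein and zinc list went from -0.54 to -0.02. None of the 14 list medians beyond 0.3 changed sign. In genes free of exon overlap, an alternative chosen after seeing the data like TMM scaling of PLC, 18 of 70 list medians moved by at least 0.1 and 9 changed sign, none of those beyond 0.3. The median of genes induced by ATF4 was -1.03, with 17 of 23 lower, that of ATF4 regulators went from -0.21 to -0.63, serine and one-carbon genes from -0.40 to -0.78 and glycolysis from 0.21 to 0.41. Triglyceride genes turned from 0.04 to -0.43 over 6 members, hexosamine genes from 0.08 to -0.07 over 6 and polyol genes from 0.05 to -0.52 over 3. Fewer genes enter each of these medians. Low counts set the width of the intervals, and the median called gene had 550 (higher) or 543 (lower) reads over both libraries, beside 1784 for genes not called.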
